A study of Mus musculus with 9 samples.

Results

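PBRM1 and BRG1 were mapped by ChIC-Seq in the mouse oviduct, and the resulting peak lists were read at 9 genes of the hedgehog pathway: the ligands *Shh*, *Ihh* and *Dhh*, the receptor *Ptch1*, the ligand-binding *Hhip*, the signal transducer *Smo*, and the transcription factors *Gli1*, *Gli2* and *Gli3*. The genes were taken by name, out of 21938 annotated protein-coding genes. Each gene was examined over its GENCODE M21 gene body on GRCm38 plus 20 kb on either side, called its window below. Peaks of the 6 replicate lists that shared at least 1 bp were joined into regions, and 76 of the 83005 regions of the genome lay in the 9 windows. A region was at the gene's own promoter when a summit lay within 2 kb of one of its annotated starts, at the promoter of another gene when it lay that close to a start of some other gene, and distal otherwise.

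All libraries came from wild-type primary oviductal smooth muscle cells on D2 (day 2) of pregnancy, from mated mice of 8 to 12 weeks, with 50000 formaldehyde-fixed cells per library. SWI/SNF complexes move nucleosomes with energy from ATP; BRG1 is one of their catalytic subunits, and PBRM1 (BAF180) marks the PBAF class among them. There were 3 libraries for each of these antibodies and 3 IgG libraries, which were not analysed here. ChIC-Seq uses an antibody to bring micrococcal nuclease to its target, and the released fragments are sequenced. The oviduct was digested, filtered and briefly plated before fixation, the protocol names no sort, and nothing says that the 3 libraries of an antibody came from separate animals, so p-values measure only the spread between these libraries. The BRG1 libraries held 14284532 to 15897724 fragments and the PBRM1 libraries 18126049 to 23992352, and each list held 31970 to 39467 peaks. As a check of the labelled cell type, promoter peaks in all 6 lists were found at 3 of 8 smooth muscle genes (*Acta2*, *Tagln* and *Smtn*), at 0 of 7 genes of the oviductal epithelium, at 0 of 3 immune genes and at 1 of 3 endothelial genes (*Tek*), against 41.4% of all protein-coding genes, so that the smooth muscle genes did not stand above the genome in this count. The smooth muscle gene *Cnn1* had no promoter peak in any list and *Myh11* had one in 1 list. The height of a peak is given as its pileup, the number of fragments over its summit, per 1000000 fragments of the library (FPM). A peak marks chromatin near the protein and is no measure of transcription, and enhancers farther than 20 kb from a gene, such as the distant limb enhancer of *Shh*, lie outside the windows.

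Hedgehog ligands are secreted proteins that bind PTCH1, which in their absence restrains SMO. When SMO is released, GLI2 and GLI3 are no longer cut into repressors. GLI2 is the main activator, GLI3 acts largely as a repressor when the pathway is off, and GLI1 adds to the activation. *Ptch1*, *Gli1* and *Hhip* are themselves transcribed in response to the signal, and PTCH1 and HHIP hold it back by binding ligand. In the female reproductive tract the ligands typically come from the epithelium and the response from the mesenchyme beneath it, which also gives rise to smooth muscle.

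The sequences below are those of the own-promoter region and the 4 distal regions that held a peak in all 6 replicate lists, read from GRCm38 and written in the direction of transcription of the named gene. They were chosen because these are the places in the 9 windows, apart from the starts of neighbouring genes, where both proteins were found in every library. Each distal run is 300 bases around the summit of the pooled BRG1 list, and the run at the internal *Gli2* start, whose summit lies in a non-coding exon, is the 300 bases just upstream of that exon. Capitals mark the motifs searched on both strands: the GLI site GACCACCCA, the AP-1 site TGANTCA, the TEAD site GGAATG and the E-box CAGCTG. None of these motifs overlapped another in the printed runs.
*Gli2* internal start, chr1:118982589-118982888, minus strand: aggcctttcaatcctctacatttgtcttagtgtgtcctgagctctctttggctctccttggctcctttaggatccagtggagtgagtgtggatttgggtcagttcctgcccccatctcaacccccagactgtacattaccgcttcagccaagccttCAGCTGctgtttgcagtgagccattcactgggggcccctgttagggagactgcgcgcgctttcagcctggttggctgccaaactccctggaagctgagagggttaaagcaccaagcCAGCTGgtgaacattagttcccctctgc
*Gli2* intron, chr1:118976704-118977003, minus strand: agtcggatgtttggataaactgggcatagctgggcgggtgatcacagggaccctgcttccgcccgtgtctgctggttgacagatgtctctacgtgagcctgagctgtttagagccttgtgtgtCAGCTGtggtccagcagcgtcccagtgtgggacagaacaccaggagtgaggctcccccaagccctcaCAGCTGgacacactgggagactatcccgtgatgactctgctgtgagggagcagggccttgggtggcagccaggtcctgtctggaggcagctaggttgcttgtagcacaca
*Gli2* downstream, chr1:118825495-118825794, minus strand: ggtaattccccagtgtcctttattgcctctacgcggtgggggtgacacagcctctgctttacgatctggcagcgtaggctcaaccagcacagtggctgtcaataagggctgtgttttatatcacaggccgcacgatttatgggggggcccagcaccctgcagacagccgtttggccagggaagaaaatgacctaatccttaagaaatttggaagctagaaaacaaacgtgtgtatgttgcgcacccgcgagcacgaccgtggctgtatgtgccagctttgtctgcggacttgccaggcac
*Smo* upstream, chr6:29718892-29719191, plus strand: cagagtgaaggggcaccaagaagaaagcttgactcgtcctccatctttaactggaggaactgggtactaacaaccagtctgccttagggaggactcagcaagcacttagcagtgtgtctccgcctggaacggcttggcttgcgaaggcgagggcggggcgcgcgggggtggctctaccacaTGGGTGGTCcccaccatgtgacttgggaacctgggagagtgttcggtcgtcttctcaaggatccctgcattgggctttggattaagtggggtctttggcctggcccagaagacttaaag
*Gli3* downstream, chr13:15741734-15742033, plus strand: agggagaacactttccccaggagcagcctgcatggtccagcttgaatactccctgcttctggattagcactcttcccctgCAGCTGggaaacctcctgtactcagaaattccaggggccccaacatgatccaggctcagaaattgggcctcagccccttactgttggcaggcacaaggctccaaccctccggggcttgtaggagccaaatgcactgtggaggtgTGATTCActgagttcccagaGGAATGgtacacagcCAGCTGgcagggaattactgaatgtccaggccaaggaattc
The *Smo* upstream region held 1 GLI site and 11 CpG. The *Gli2* internal start and the *Gli2* intron held 2 E-boxes each, and the *Gli3* downstream region held 2 E-boxes, 1 AP-1 site, 1 TEAD site and 1 CpG. No such motif lay in the printed run downstream of *Gli2*. A match is a run of letters and says nothing of whether a factor was bound.

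The first comparison asked which of these genes carried PBRM1 and BRG1 at their own promoters. *Smo* and *Gli2* did so in every library, and *Shh* and *Dhh* in none. In all 3 PBRM1 lists a promoter peak was found at 2 of the 9 genes, against 43.8% of all protein-coding genes. In all 3 BRG1 lists it was found at 3 of the 9, against 49.6% of all genes, with *Ptch1* as the additional gene. All 6 lists held one at 2 of the 9 (background 41.4%), and no list held one at 2 of the 9 (background 34.9%). The remaining genes were in between, with a promoter peak in 1 list for *Ihh*, in 3 lists each for *Hhip*, *Gli1* and *Gli3*, and in 5 lists for *Ptch1*. The pooled lists, which rest on the 3 replicates of an antibody together, held a promoter peak at 7 of the 9 genes for PBRM1 (background 65.4%) and at 7 of the 9 for BRG1 (background 67.3%). *Shh* and *Dhh* lacked one there too. With 9 genes, these shares are a description only. A list without a peak is not a list without fragments, since the lowest pileup that was called lay between 0.333 and 0.42 FPM in the 6 replicate lists.

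**Figure D1:**
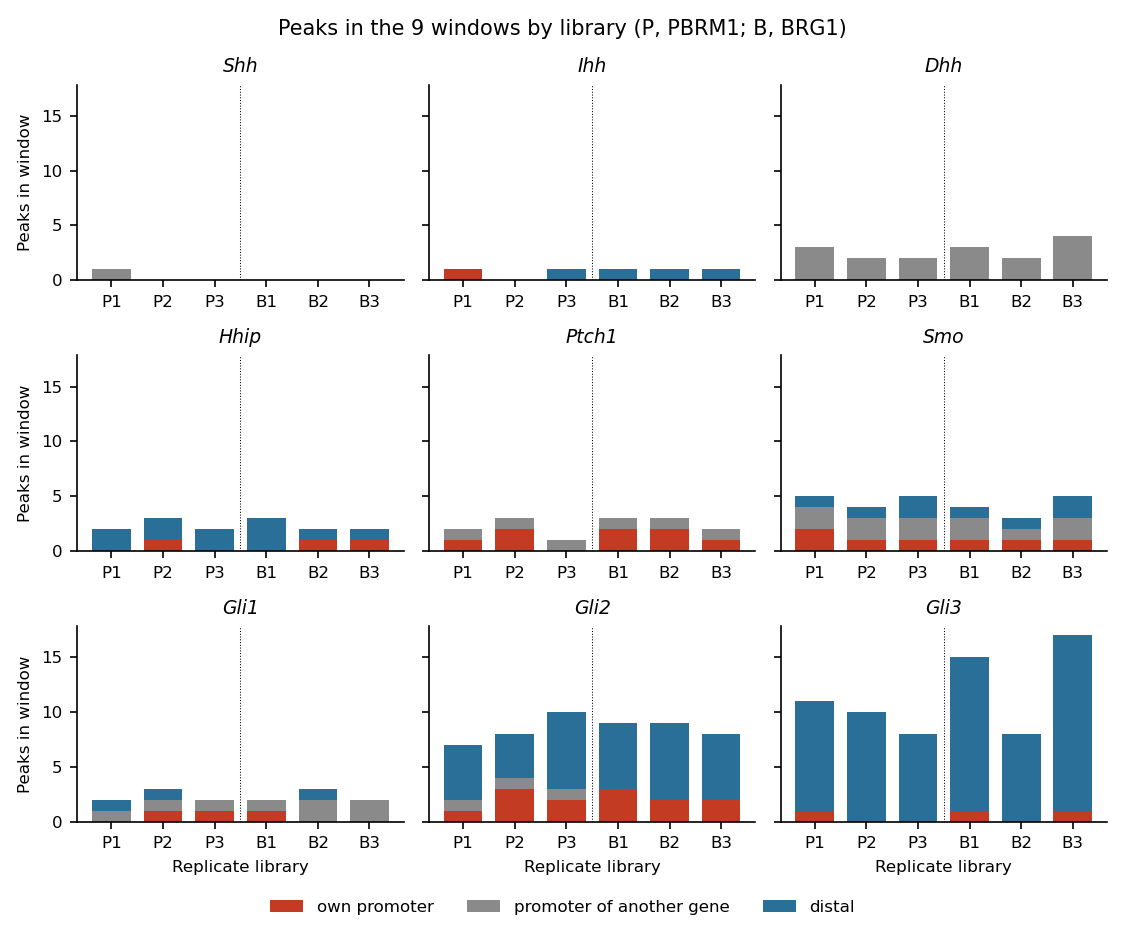
Number of peaks in the window of each gene (y axis) in each replicate library (x axis; P1 to P3, PBRM1; B1 to B3, BRG1), with colors for peaks at the gene's own promoter, at the start of another gene, and distal. *Gli3* held 8 to 17 peaks per library, almost all distal, whereas *Dhh* held peaks only at starts of other genes and *Shh* held 1 peak in PBRM1 replicate 1.

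No ligand gene had a peak at its own promoter in more than 1 replicate list. *Shh* (chr5:28456815-28467256), the ligand best known from limb and neural patterning, had 1 region, found in PBRM1 replicate 1 alone, inside the gene and 262 bp from the start of the transcript 9530036O11Rik. It was in neither pooled list, and the pooled BRG1 list had 1 other peak, 4227 bp from the *Shh* start. *Ihh* (chr1:74945315-74951672), which in the uterus is an epithelial gene that responds to progesterone, had 3 regions. Its promoter region, with a summit 1431 bp from an annotated start, was found in PBRM1 replicate 1 with a pileup of 0.707 FPM and in no other replicate list, although both pooled lists held a peak there. Its best supported region lay 13178 bp upstream, with a pileup in FPM of 0.625 in PBRM1 replicate 3, 0.77 in BRG1 replicate 2 and 0.998 in BRG1 replicate 3 and no peak in the other three libraries. *Dhh* (chr15:98891152-98898540), the ligand of peripheral nerve and testis, had 4 regions, and every one of them lay at the start of another gene. Both regions found in all 6 lists belonged to neighbours, *Rhebl1* and *Lmbr1l*, and the nearest summit to a *Dhh* start in any replicate list was 4219 bp away.

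*Ptch1* (chr13:63508328-63573598) encodes the receptor and has 10 annotated starts. It had 3 regions, the farthest of them 7109 bp from its 5′ end. The region at the 5′ end (chr13:63573348-63573745) gave a pileup in FPM of 0.808 in PBRM1 replicate 1 and 0.828 in PBRM1 replicate 2, with no peak in PBRM1 replicate 3. In BRG1 it gave 1.13, 1.05 and 1.33 in replicates 1 to 3, so that every called BRG1 value was above both called PBRM1 values. With PBRM1 replicate 3 lacking a peak, no share of all regions is set beside this order. On fold enrichment the called values overlapped, at 4.42 and 3.97 in PBRM1 and 4.01, 3.25 and 4.71 in BRG1. A further region (chr13:63566411-63566622), 754 bp from an internal start, was called in PBRM1 replicate 2 at 2.43 FPM and in BRG1 replicates 1 and 2 at 2.7 and 3.78. The region found in all 6 lists (chr13:63567782-63568289) lay in a *Ptch1* intron, 2193 bp from the nearest *Ptch1* start and so just outside the 2 kb limit, and 126 bp from the start of A930032L01Rik, an annotated transcript of undetermined type. In PBRM1 replicate 3 its summit, 2155 bp away, was the nearest to any *Ptch1* start, which is why that library counts as lacking a promoter peak. The member just inside the limit was *Ihh*, at 1431 bp, followed by *Smo*, whose nearest summit in PBRM1 replicate 3 lay 1293 bp from a start.

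*Hhip* (chr8:79965851-80058006), the ligand-binding antagonist, had 7 regions, of which 4 were found in a single list and none in all 6. Its promoter region, 41 bp from the 5′ end, gave a pileup in FPM of 0.441 in PBRM1 replicate 2, 0.77 in BRG1 replicate 2 and 0.798 in BRG1 replicate 3. The best supported region was intronic (chr8:79994885-79995600), 4928 bp from an internal start. Its pileup in FPM was 0.556, 0.772 and 0.625 in PBRM1 replicates 1 to 3 and 0.944 and 0.77 in BRG1 replicates 1 and 2, with no peak in BRG1 replicate 3. In pileup the called values of the antibodies overlapped there. On fold enrichment they did not, at 3.62, 4.44 and 3.69 in PBRM1 and 6.42 and 5.31 in BRG1. With BRG1 replicate 3 lacking a peak, no share of all regions is set beside this.

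*Smo* (chr6:29735503-29761365) encodes the transducer that PTCH1 restrains, and, like *Gli2*, it combined a promoter peak in every list with a distal region found in every list. The strongest promoter peak gave 1.11, 0.772 and 0.75 FPM in PBRM1 replicates 1 to 3 and 1.13, 1.33 and 1.2 in BRG1 replicates 1 to 3, and each BRG1 library was above each PBRM1 library. They came from 2 neighbouring regions: the one nearest the start was called in 5 lists, and PBRM1 replicate 3 had its peak in the other, 1293 bp from a start. On fold enrichment the antibodies overlapped in the region nearest the start. It was 4.4 and 3.2 in PBRM1 replicates 1 and 2 and 3.8, 4.28 and 4.38 in BRG1. The distal region (chr6:29718819-29719494) lay 16462 bp upstream, with the nearest start of another gene 11013 bp away at *Tspan33*. It gave 0.96, 0.772 and 0.792 FPM in PBRM1 and 1.82, 1.47 and 1.66 in BRG1, with no overlap between the antibodies. Of all regions found in all 6 lists, 56.8% had every BRG1 library above every PBRM1 library. A second region found in every list lay at the start of *Ahcyl2*, downstream of *Smo*.

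Among the GLI genes, *Gli1* (chr10:127329882-127341974), a target of the pathway as well as its effector, had 6 regions but only 1 in all 6 lists, at the start of the neighbouring *Mars*. Its own promoter peaks were scattered over 3 regions, each found in 1 list: 1.32 FPM in PBRM1 replicate 2, 0.584 in PBRM1 replicate 3 and 1.07 in BRG1 replicate 1. Both pooled lists nevertheless held promoter peaks at *Gli1*, 4 for PBRM1 and 3 for BRG1. *Gli2* and *Gli3* together held 46 of the 76 regions.

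*Gli2* (chr1:118834132-119053619) had 16 regions, 11 of them in introns, and 3 were found in all 6 lists, the most of any of the 9 genes. The promoter at the 5′ end (chr1:119053484-119053937) gave 1.32 and 0.875 FPM in PBRM1 replicates 2 and 3 and no peak in PBRM1 replicate 1. In BRG1 it gave 1.7, 1.47 and 1.93, all above the called PBRM1 values. On fold enrichment the called values overlapped, at 3.78 and 2.89 in PBRM1 and 3.7, 3.11 and 4.04 in BRG1. The region at the internal start (chr1:118981840-118983044) had its summit 71114 bp from the 5′ end. It gave 0.859, 1.1 and 0.834 FPM in PBRM1 and 1.45, 1.4 and 1.2 in BRG1. This start, whose upstream sequence opens the list above, was therefore the only own-promoter region of the 9 genes found in every list. An intronic region 5735 bp downstream of it in the direction of transcription (chr1:118976300-118977213) gave 1.26, 1.66 and 0.959 in PBRM1 and 1.95, 2.17 and 1.73 in BRG1. The last of the 3 lay past the 3′ end of the gene (chr1:118825341-118826100) and gave 0.909, 1.21 and 0.917 in PBRM1 and 1.7, 1.61 and 1.53 in BRG1. In each of these 3 regions the lowest BRG1 library was above the highest PBRM1 library. The same order held in 56.8% of all regions found in all 6 lists. On fold enrichment the antibodies overlapped in each of the 3 *Gli2* regions.

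*Gli3* (chr13:15463235-15730026) had the most regions, 30, of which 28 were distal and 23 lay in introns. Only 1 of them was found in all 6 lists and 13 were found in a single list. That region (chr13:15741563-15742514) lay past the 3′ end and gave 1.16, 0.828 and 0.792 FPM in PBRM1 and 1.32, 1.68 and 0.931 in BRG1. BRG1 replicate 3 was below PBRM1 replicate 1, so the antibodies overlapped. The *Gli3* promoter was called in PBRM1 replicate 1 at 0.859 FPM, in BRG1 replicate 1 at 1.2 and in BRG1 replicate 3 at 0.998. Of the intronic regions, 3 were found in 5 lists. In 2 of these BRG1 replicate 2 was the library without a peak, and in 1 it was PBRM1 replicate 2.

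**Figure D2:**
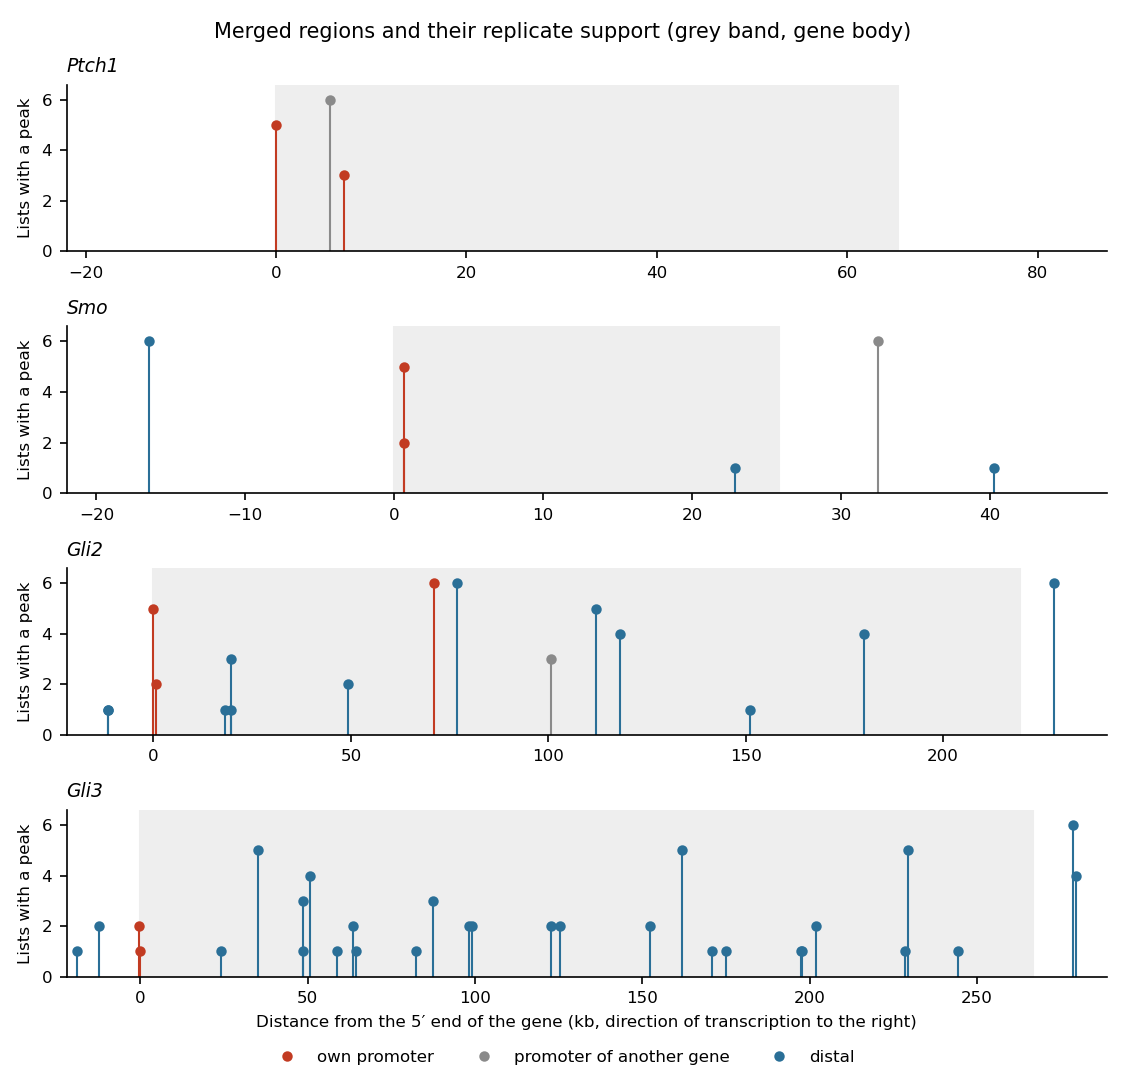
Regions in the windows of *Ptch1*, *Smo*, *Gli2* and *Gli3*, placed by the distance of the summit from the 5′ end of the gene (x axis, kb) and drawn as high as the number of replicate lists with a peak (y axis, of 6); colors give the class and the grey band the gene body. *Ptch1* regions cluster at the 5′ end, *Gli2* has 6-list regions at and near its internal start, and the many *Gli3* regions are mostly low.

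Next, replicate support was compared with that of the genome. Of the 76 regions, 10 were found in all 6 lists, which is 13.2% against 15.5% of all regions. A further 32 were found in 1 list (42.1% against 47.0% of all regions). By class, 1 of 14 own-promoter regions and 4 of 53 distal regions were found in every list. So were 5 of 9 regions at the start of another gene, which made up 5 of the 10 regions with cooccupancy in every library. These counts by class are a description only, since no share of all regions of a class is set beside them. PBRM1 was called in 54 of the 76 regions (71.1%, against 69.6% of all regions), BRG1 in 56 (73.7%, against 73.3%) and both in 34 (44.7%, against 42.9%). The pooled lists held 89 PBRM1 and 98 BRG1 peaks in the windows, of which 17 and 20 overlapped a peak in all 3 of their replicates (19.1% and 20.4%, against 19.0% and 19.3% of all pooled peaks). A further 38 and 45 overlapped none (42.7% and 45.9%, against 43.9% and 43.3%). Each share set beside that of the genome was close to it.

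The genes with the longest windows, *Gli3* and *Gli2*, also held the most regions. *Gli3*, with a window of 307 kb, had a number of regions that 0.561% of protein-coding genes reached, but per 100 kb it had 9.78 regions, a density that 15.3% of genes reached. *Gli2* had 6.17 per 100 kb, reached by 39.5% of genes. The highest density was at *Gli1*, 11.5 per 100 kb (reached by 8.87% of genes), and the lowest at *Shh*, 1.98 (73.5% of genes). The median gene had 4.83. Counted over regions found in all 6 lists, *Dhh* ranked highest at 4.22 per 100 kb (9.89% of genes at or above), through the promoters of *Rhebl1* and *Lmbr1l*, while *Shh*, *Ihh* and *Hhip* had none, as did 41.4% of protein-coding genes.

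**Figure D3:**
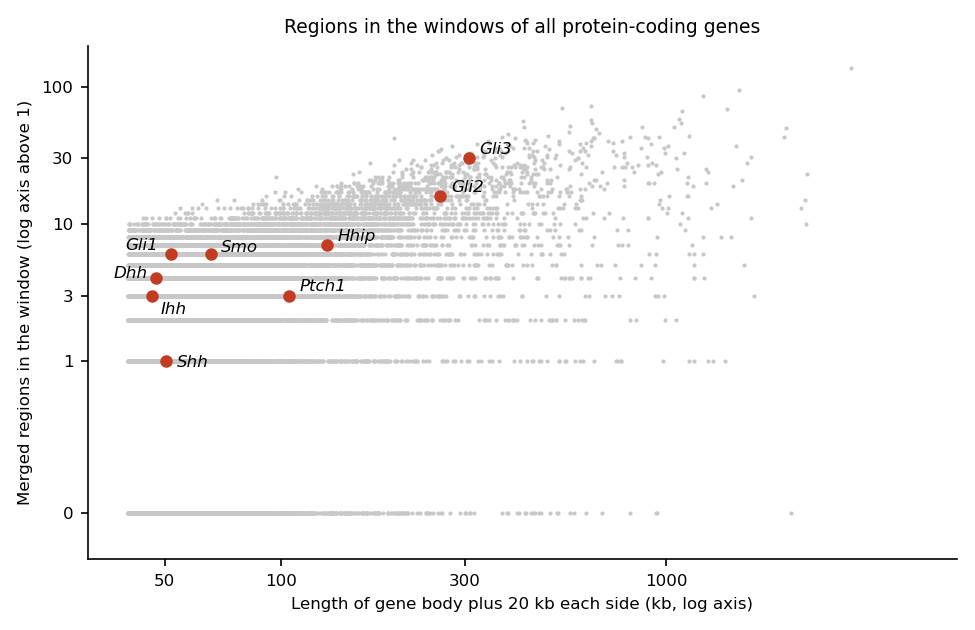
Regions of the 6 replicate lists (y axis, log scale above 1) against the length of the window (x axis, kb, log scale) for all 21938 protein-coding genes (grey) and the 9 hedgehog genes (red). *Gli3* (30 regions) and *Gli2* (16) lie within the range of other genes with windows of their length, and *Shh* (1) is the lowest of the 9.

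The question of whether one antibody marked these windows more often was answered by counts per library. The windows held 34, 33 and 31 peaks in PBRM1 replicates 1 to 3 and 40, 31 and 41 in BRG1 replicates 1 to 3. BRG1 replicate 2 equaled the lowest PBRM1 library, so the antibodies overlapped. The means were 32.7 ± 1.53 for PBRM1 and 37.3 ± 5.51 for BRG1 (SD, n = 3 each), and the difference of 4.67 peaks was within the spread between libraries (exact permutation over libraries, two-sided p = 0.4). With 3 libraries against 3, p cannot go below 0.1. As a share of all peaks in the library, the windows took 0.0914 ± 0.0109% for PBRM1 and 0.0996 ± 0.0109% for BRG1 (SD, n = 3 each), with p = 0.5 by the same exact permutation. The spread came mainly from *Gli3*, with 11, 10 and 8 peaks in PBRM1 and 15, 8 and 17 in BRG1, whereas *Gli2* had 7, 8 and 10 in PBRM1 and 9, 9 and 8 in BRG1.

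Of the 76 regions, 42 were called with one antibody and not the other, most of them in 1 list. In all 3 BRG1 lists and no PBRM1 list there were 2 of the 76 regions, against 0.916% of all regions. One lay in a *Gli2* intron (chr1:119033706-119034255), 19301 bp from a start, with a pileup in FPM of 1.13, 1.33 and 1.33 in BRG1 replicates 1 to 3. The other lay in a *Gli3* intron (chr13:15550455-15551269), with 0.818, 0.98 and 0.798. The pooled PBRM1 list nevertheless held a peak at both, with 0.646 FPM in *Gli2* and 0.581 FPM in *Gli3*. In all 3 PBRM1 lists and no BRG1 list there was 1 region, against 1.22% of all regions, in a *Gli2* intron near the start of *Mir6346* (chr1:118952790-118953046), with 0.96, 0.717 and 1 FPM. The pooled BRG1 list held a peak there too, at 0.863 FPM, beside 0.872 FPM in the pooled PBRM1 list. These 3 regions were thus found with one antibody among the replicate lists and with both among the pooled lists.

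The 10 regions found in all 6 lists have a value in every library and were compared directly. In pileup, every BRG1 library was above every PBRM1 library in 9 of the 10, against 56.8% of all 12842 such regions. In 0 of the 10 was every PBRM1 library above every BRG1 library, against 0.779% of all. On fold enrichment every BRG1 library was above only upstream of *Smo*, at the *Lmbr1l* start and downstream of *Gli3*. The antibodies overlapped in the others of the 10, and 28.97% of all 12842 regions had every BRG1 library above on that scale. The excess over all regions seen in pileup was thus not seen on fold enrichment. The strongest of the 10 in pileup lay at the start of *Lmbr1l*, 2.7 ± 0.31 FPM in PBRM1 and 4.31 ± 0.19 in BRG1 (mean ± SD, n = 3 each). Next came the A930032L01Rik start inside *Ptch1*, with 2.53 ± 0.416 and 3.72 ± 0.228, and the *Rhebl1* start, with 1.5 ± 0.143 and 2.5 ± 0.342. The 5 regions away from other genes' starts had PBRM1 means of 0.841 to 1.29, as against 1.25 to 2.7 at the starts of other genes. They ran from 0.841 ± 0.103 in PBRM1 and 1.65 ± 0.177 in BRG1 upstream of *Smo* to 1.29 ± 0.349 and 1.95 ± 0.22 in the *Gli2* intron (n = 3 each).

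**Figure D4:**
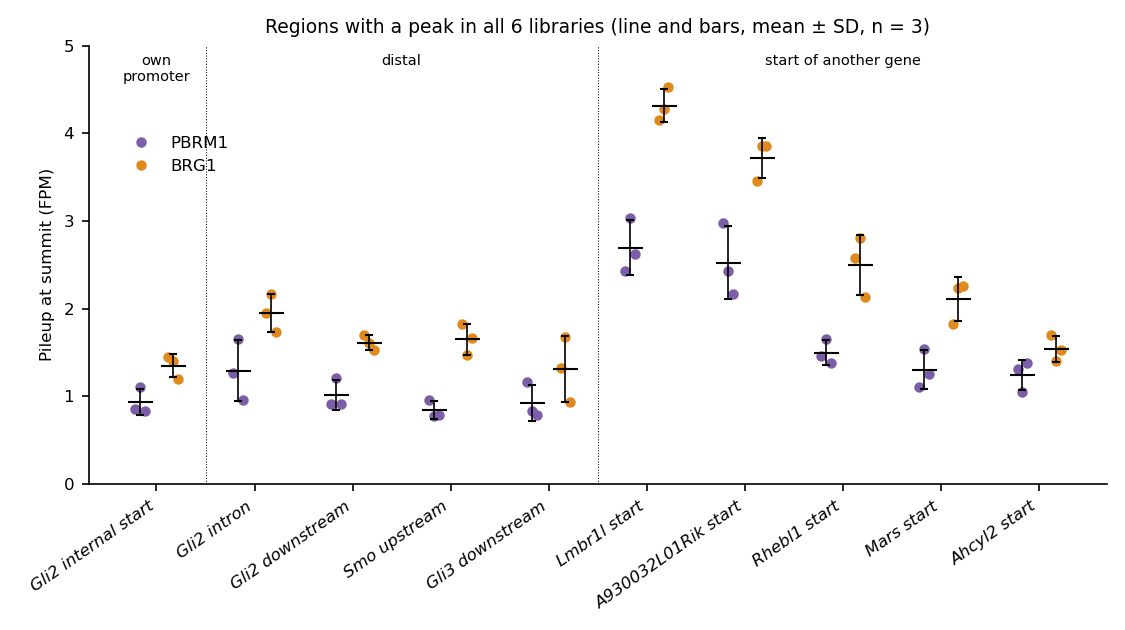
Pileup at the summit (y axis, FPM) in the 3 PBRM1 and 3 BRG1 libraries (points) at the 10 regions found in all 6 lists, with mean ± SD (n = 3). BRG1 points lie above PBRM1 points in 9 regions on this scale and overlap them downstream of *Gli3*, while the sign of the difference turned at 3 regions on fold enrichment or after centring.

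Tested across all 12842 regions with limma, 8 of the 10 regions passed a Benjamini-Hochberg adjusted p of 0.05 with BRG1 higher, against 53.0% of all regions, and 0 of the 10 passed with PBRM1 higher, against 0.428% of all. The log2 difference was largest upstream of *Smo*, 0.98 ± 0.21 (SE; limma adjusted p = 0.000168), a value that 3.78% of all regions exceeded. On this scale it was 0.54 ± 0.22 at the internal *Gli2* start (adjusted p = 0.0302), 0.62 ± 0.20 in the *Gli2* intron (adjusted p = 0.00767) and 0.68 ± 0.21 downstream of *Gli2* (adjusted p = 0.0052). It was 0.48 ± 0.22 downstream of *Gli3* (adjusted p = 0.0614) and 0.31 ± 0.21 at *Ahcyl2* (adjusted p = 0.182), the 2 regions that did not pass. The *Lmbr1l*, *Rhebl1*, *Mars* and A930032L01Rik starts gave 0.57 to 0.73, and all 4 passed. The internal *Gli2* start no longer passed when any one of 4 libraries was left out (PBRM1 replicates 1 and 3, BRG1 replicates 1 and 2; log2 0.46 to 0.51), nor did the *Gli2* intron without PBRM1 replicate 3 (0.43). The region downstream of *Gli3* passed without PBRM1 replicate 1 (0.65) or BRG1 replicate 3 (0.71).

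These differences mostly followed the whole set, whose median log2 difference was 0.49. The median of the 10 was 0.65, and 8 of the 10 were above that of all regions. After centring the medians were 0.19 for the 10 and 0.02 for all regions, and on fold enrichment 0.22 and 0.20. The BRG1 libraries were all shallower than the PBRM1 libraries, so depth and antibody cannot be told apart in this shift. With each library centred on its median, limma called 0 of the 10 regions (2.45% of all regions were called BRG1 higher), with 1 of the 10 at an unadjusted p under 0.05. That region was again the one upstream of *Smo*, at 0.51 ± 0.20 (SE; adjusted p = 0.119). On the authors' fold enrichment, which sets the summit against the local background of the same library, 1 of the 10 was called, against 10.6% of all regions. It was the region downstream of *Gli3*, at 0.63 ± 0.18 (SE; adjusted p = 0.0226), where fold enrichment was 4.22, 3.23 and 3.62 in PBRM1 and 6.02, 6.65 and 4.59 in BRG1. On that scale *Smo* upstream gave 0.38 ± 0.17 (adjusted p = 0.137), while the internal *Gli2* start and the A930032L01Rik start turned below 0, at -0.080 and -0.036, as did the *Ahcyl2* start after centring, at -0.15. No region of the 9 windows was called on all 3 scales.

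**Figure D5:**
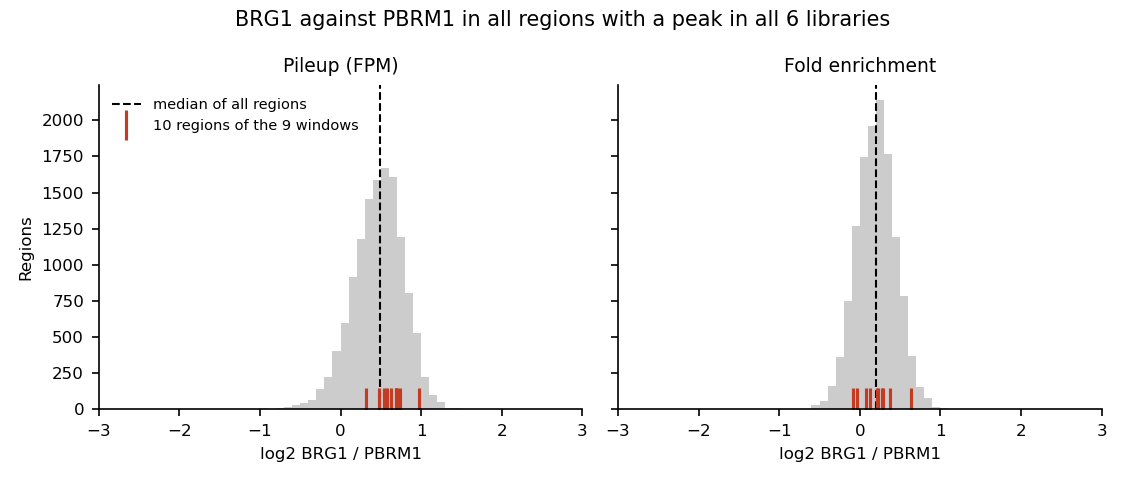
Distribution of the log2 difference of BRG1 over PBRM1 (x axis) over all 12842 regions found in all 6 lists (y axis, regions), on pileup in FPM (left) and on fold enrichment (right); red ticks are the 10 regions of the hedgehog windows and the dashed line is the median of all regions (0.49 left, 0.20 right). On pileup 3.78% of all regions lie above the highest red tick (*Smo* upstream), and on fold enrichment 3.65% lie above the highest (*Gli3* downstream).

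Sequence at the summits was then read, since GLI proteins are the pathway's own transcription factors. Over each pooled summit and 250 bases to either side, the GLI site GACCACCCA was found at 3 of 89 PBRM1 summits in the windows (3.37%) and at 3 of 98 BRG1 summits (3.06%), beside 0.368% of all PBRM1 summits and 0.456% of all BRG1 summits. The difference from all summits was not tested. Among distal summits the site was found at 1 of 62 for PBRM1 (1.61%) and 1 of 74 for BRG1 (1.35%). It was found at 0.348% and 0.443% of all distal summits. The matches were the same 3 sites for both antibodies, in the windows of *Ptch1* and *Smo*. They are printed because they are the only matches in the set, each with 10 bases to either side in the direction of transcription and the site in capitals.
*Ptch1* exon, chr13:63573455-63573483, minus strand: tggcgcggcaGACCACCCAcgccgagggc
*Ptch1* intron, chr13:63566425-63566453, minus strand: gttgcctaccTGGGTGGTCtctctacttt
*Smo* upstream, GLI site, chr6:29719063-29719091, plus strand: ctctaccacaTGGGTGGTCcccaccatgt
The first lay in an exon of *Ptch1*, 129 bp past the 5′ end and outside annotated coding sequence, 181 bp from the pooled BRG1 summit of a region found in 5 lists. The second lay in a *Ptch1* intron, 50 bp from the BRG1 summit of the promoter region at the internal starts, which was found in 3 lists. The third lay at -16426 bp from the *Smo* start, 36 bp from the BRG1 summit of the region found in all 6 lists. No GLI site lay within 250 bases of a pooled summit of *Gli1* or *Hhip*, the other genes of the group that respond to the signal.

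The other motifs were near their background. The AP-1 site was found at 29.2% of PBRM1 and 24.5% of BRG1 summits in the windows, beside 33.4% and 28.9% of all summits. The TEAD site was found at 30.3% and 34.7%, beside 33.1% and 30.1%, and the E-box at 31.5% and 27.6%, beside 26.8% and 29.5%. The median number of CpG was 6 for PBRM1 and 7 for BRG1, the same as over all summits of each list. By class, summits of the pooled BRG1 list had a median of 28 CpG at own promoters (11 to 59), 38 at starts of other genes (4 to 64) and 5.5 at distal sites (0 to 43), with overlapping ranges. The internal *Gli2* start, found in every list, was the poorest of the own-promoter summits, with 11 CpG, against 42 at the *Gli2* 5′ end and 51 at *Smo*. Among RefSeq promoters on GRCm38.p6 (250 bases before to 50 after the start), 7 of the 9 genes were matched, *Ptch1* at a start inside the gene. The number of CpG in them ran from 12 at *Dhh* to 47 at *Ptch1*, beside a median of 7 over 32851 promoters, and none of the 7 held a GLI site, as against 0.253% of all promoters with one. *Ihh* and *Hhip*, at 30 CpG each, had a promoter peak in 1 and 3 replicate lists, while *Smo*, at 17, had one in all 6.

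Finally, the rest of the pathway was examined from a list of 22 further genes. Of these, 15 had a promoter peak in all 6 lists (background 41.4%), 17 in all 3 PBRM1 lists (43.8%) and 16 in all 3 BRG1 lists (49.6%), and all 22 had one in both pooled lists (65.4% for PBRM1 and 67.3% for BRG1), the shares in parentheses being those of all protein-coding genes. Those in every list included the coreceptors *Cdon*, *Boc* and *Gas1*, the ligand-release and ligand-acylating factors *Disp1* and *Hhat*, the GLI inhibitor *Sufu*, and the kinases *Prkaca*, *Csnk1a1* and *Gsk3b* that mark GLI proteins for processing. Many of the 22 are used by all cells, and the difference between the lists was not tested. A pair of neighbouring genes with the same promoter pileup in every list was counted as separate genes. Both enter the count for all 3 PBRM1 lists, and neither enters that for all 3 BRG1 lists or for all 6 lists. *Gsk3b* was the strongest, at 3.54, 3.25 and 3 FPM in PBRM1 and 5.22, 4.06 and 5.45 in BRG1. *Sufu* gave 2.43, 2.43 and 2.17 in PBRM1 and 3.9, 2.94 and 3.59 in BRG1, above every library's value at the *Smo* promoter. The least supported was *Scube2*, which helps release ligand, in 1 list. No gene of the list lacked a promoter peak in all 6 lists, and none had one in all 3 libraries of one antibody and no library of the other.

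Of 9 known hedgehog targets outside that list, 2 had a promoter peak in all 6 lists, against 41.4% of all protein-coding genes: *Nr2f2*, a nuclear receptor, and *Ccnd1*, which encodes cyclin D1. The same 2 had one in all 3 PBRM1 lists (43.8%), and 4 had one in all 3 BRG1 lists (49.6%), with *Foxf1* and *Bcl2* in addition. *Foxf1*, a forkhead factor of visceral mesenchyme, had one in all 3 BRG1 lists and no PBRM1 list, with 1.32, 0.98 and 0.865 FPM, although the pooled PBRM1 list held one at 0.388. *Mycn* had one in 4 lists, *Ccnd2* in 2, *Foxf2* and *Bmp4* in 1 each, and *Foxl1* in none.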

How the data were processed

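ChIC-Seq peak lists of 3 PBRM1 and 3 BRG1 libraries and 1 pooled list per antibody were used. MACS 2.2.7.1, per the file headers, was run by the authors on paired-end fragments with duplicates kept, a q cutoff of 0.05 and no control library, so the background came from the same library and sites cut regardless of antibody may be included. The submitters' processing notes name cutadapt, Bowtie2, MACS2 and GRCm38.p5.

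The deposited pileup is a signal, the coverage by fragments at the summit. It was divided by the fragment total in the header and multiplied by 1000000 (FPM). The deposited fold enrichment is a ratio of that pileup to local background, and the deposited −log10 q was used as a filter in an alternative. The highest pileup was taken where a library had several peaks in a region.

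Peaks were compared with Python 3.11.15, numpy 2.4.6 and pandas 2.3.3, and sequence was read with pysam 0.24.0 and samtools 1.23.1 from GRCm38.p6, beyond whose chromosome ends no peak extended (0 peaks). Genes were those of GENCODE M21. Log2 pileup in FPM was fitted with limma 3.58.1 (R 4.3.3) with a mean-variance trend over the 12842 regions found in all 6 lists, with Benjamini-Hochberg adjustment. The fit was tested on simulated data. Counts per library were compared by two-sided exact permutation. All 9 genes were described, every region in all 6 lists was given, and of the others those in all 3 lists of one antibody and none of the other, or best supported, were named. The best supported ones, the pathway examples and the 3 GLI sites were chosen after their values were seen. The members and the lists were chosen with earlier results of these data known. One gene of the pathway list enters its counts and is not reported here on its own.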

Additional observations from a re-analysis of the deposited data

How the results depend on the processing

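The number of genes with a promoter peak in every list rested on the distance and the threshold. With a 1 kb limit it was 1 in all 3 PBRM1 lists and 1 in all 6, and with a 5 kb limit it was 4 in both. Kept to peaks with a −log10 q of 5 or more, it was 0 in the PBRM1 lists, 1 in the BRG1 lists and 0 in all 6. Leaving out 1 library, it was 2 to 3 in the PBRM1 lists, 3 to 4 in the BRG1 lists and 2 to 3 in all lists. No share of all protein-coding genes is given at these other settings, so whether these changes are particular to the 9 genes cannot be told. The difference in peaks per library kept its sign, from 2.83 to 7.83 without 1 library, and no alternative could pass 0.05. Centring on the median lowered the hedgehog regions called BRG1 higher from 8 to 0 and those of the genome from 6803 to 315, and fold enrichment lowered them to 1 and 1363. Without 1 library, 6 to 9 of 10 to 12 hedgehog regions were called (50% to 81.8%). Of the genome, 5190 to 6847 of 13422 to 14273 regions were called (37.9% to 48.7%). Libraries with the same number did not deviate together (correlations -0.0286 to 0.00373), and with a replicate block 8 hedgehog regions and 6591 of all regions were called, and the paired exact sign-flip test of peaks per library gave p = 0.5, where 3 pairs allow no less than 0.25. The sign turned at *Ahcyl2* with centring (log2 -0.15), and at the internal *Gli2* start (-0.080) and the A930032L01Rik start (-0.036) on fold enrichment. The internal *Gli2* start lost its call without any one of 4 libraries (PBRM1 replicates 1 and 3, BRG1 replicates 1 and 2), the *Gli2* intron lost its call without PBRM1 replicate 3 (0.43, adjusted p = 0.0834, limma), and the region downstream of *Gli3* gained one without PBRM1 replicate 1 (0.65) or BRG1 replicate 3 (0.71). The causes were not tested. Every BRG1 library was shallower than every PBRM1 library, so depth and antibody cannot be told apart in counts of weak peaks.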
